A study of Mus musculus with 6 samples.

Results

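Nicotinic acetylcholine receptors are ion channels of 5 subunits that open when acetylcholine binds. In gastrocnemius, a calf muscle, 10 subunit genes were compared between mice lacking TAK1 in skeletal muscle and floxed control mice. The genes were Chrna1, Chrnb1, Chrnd, Chrne, Chrng, Chrna2, Chrna4, Chrna7, Chrna9 and Chrna10, found by their gene symbol among 22180 measured genes. All 10 were found, each on 1 probe set of its own, so that no probe set had to be selected on its level. The genes to describe were chosen by name, with their levels and fold changes on these arrays already known. The arrays were Affymetrix expression arrays, 1 per mouse. The knockout group held 3 muscle-specific TAK1-knockout mice, labelled 3 weeks after the deletion. The control group held 3 mice with floxed TAK1, an allele flanked by recombination sites. The labels name neither the promoter that drives the recombinase nor an inducing agent, and they give no age or sex.

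At the neuromuscular junction the adult receptor is built from a pair of alpha1 subunits (Chrna1) with beta1 (Chrnb1), delta (Chrnd) and epsilon (Chrne). The fetal receptor carries gamma (Chrng) in place of epsilon, and the switch from gamma to epsilon follows innervation. Muscle that loses its nerve is known to raise Chrna1, Chrnd and Chrng along the whole fibre, through myogenic transcription factors that bind E-boxes near these genes. The other alpha subunits are best known outside muscle. Chrna4 and Chrna2 serve in brain receptors, Chrna7 forms receptors of a single subunit type, and Chrna9 with Chrna10 forms the receptor of inner ear hair cells.

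Sequence near the start sites is shown for the muscle subunits with an entry, since they form 1 receptor, and for Chrna9, which rose in knockout muscle as Chrna1 did. Each sequence runs from 250 bases before to 50 bases after the RefSeq start site of build GRCm38.p6, 5′ to 3′ on the strand of the gene. Capitals mark each E-box (CANNTG, the same on both strands) and each N-box (CCGGAA on either strand), an element bound by ETS-family factors and known for the junction. The windows are chr2:73580289-73580588, minus strand for Chrna1, chr11:69795888-69796187, minus strand for Chrnb1, chr5:65966874-65967173, plus strand for Chrna9, chr11:70619145-70619444, minus strand for Chrne and chr1:87205561-87205860, plus strand for Chrng.
Chrna1: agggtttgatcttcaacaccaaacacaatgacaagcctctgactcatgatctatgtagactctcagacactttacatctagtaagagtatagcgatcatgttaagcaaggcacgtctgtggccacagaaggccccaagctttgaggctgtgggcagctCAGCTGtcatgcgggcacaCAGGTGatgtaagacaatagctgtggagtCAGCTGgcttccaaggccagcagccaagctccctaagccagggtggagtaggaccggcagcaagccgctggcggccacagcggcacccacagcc
Chrnb1: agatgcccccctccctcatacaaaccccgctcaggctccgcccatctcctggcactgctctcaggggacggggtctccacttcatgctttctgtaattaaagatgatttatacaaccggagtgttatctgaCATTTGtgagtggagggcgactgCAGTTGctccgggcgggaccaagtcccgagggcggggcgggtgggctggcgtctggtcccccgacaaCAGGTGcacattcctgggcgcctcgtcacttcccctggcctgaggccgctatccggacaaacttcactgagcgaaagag
Chrna9: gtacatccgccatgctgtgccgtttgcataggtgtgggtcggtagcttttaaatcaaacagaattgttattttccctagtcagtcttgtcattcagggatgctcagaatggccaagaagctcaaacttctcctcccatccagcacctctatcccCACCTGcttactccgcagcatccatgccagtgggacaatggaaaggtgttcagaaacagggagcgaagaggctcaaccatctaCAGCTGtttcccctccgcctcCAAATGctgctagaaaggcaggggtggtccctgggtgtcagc
Chrne: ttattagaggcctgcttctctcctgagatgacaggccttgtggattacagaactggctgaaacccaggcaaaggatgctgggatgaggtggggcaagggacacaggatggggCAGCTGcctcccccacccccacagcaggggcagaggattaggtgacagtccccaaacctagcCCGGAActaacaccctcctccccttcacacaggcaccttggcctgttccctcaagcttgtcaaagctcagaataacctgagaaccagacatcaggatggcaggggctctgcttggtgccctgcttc
Chrng: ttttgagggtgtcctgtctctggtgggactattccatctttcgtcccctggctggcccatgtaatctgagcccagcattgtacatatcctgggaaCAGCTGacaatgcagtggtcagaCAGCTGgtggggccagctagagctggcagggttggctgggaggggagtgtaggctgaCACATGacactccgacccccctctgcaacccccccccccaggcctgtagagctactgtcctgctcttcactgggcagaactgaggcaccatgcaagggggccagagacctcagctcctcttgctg

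Of the 10 genes, 8 matched a RefSeq window, and 7 of those 8 held an E-box, as did 72.3% of all 32851 windows. Chrna1, Chrnb1, Chrna9 and Chrng each had 3 E-boxes, a number reached or passed by 17.6% of all windows. The form CAGCTG, the same on both strands, occurred in 2 copies near Chrna1 and in 2 near Chrng, and 1.90% of all windows had at least 2. Its copies near Chrna1 began 92 and 44 bases before the first of the 50 bases after the start site, and those near Chrng began 155 and 132 bases before it. The form CAGGTG, searched on both strands, was found near Chrna1, Chrnb1, Chrna9 and Chrna10 and in 20.2% of all windows. An N-box was found in 1 of the 8 windows, that of Chrne, and in 14.9% of all windows. CAGCTG and CAGGTG are forms of the E-box and are counted in both. These matches are letters in a window and say nothing of binding.

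**Figure D1:**
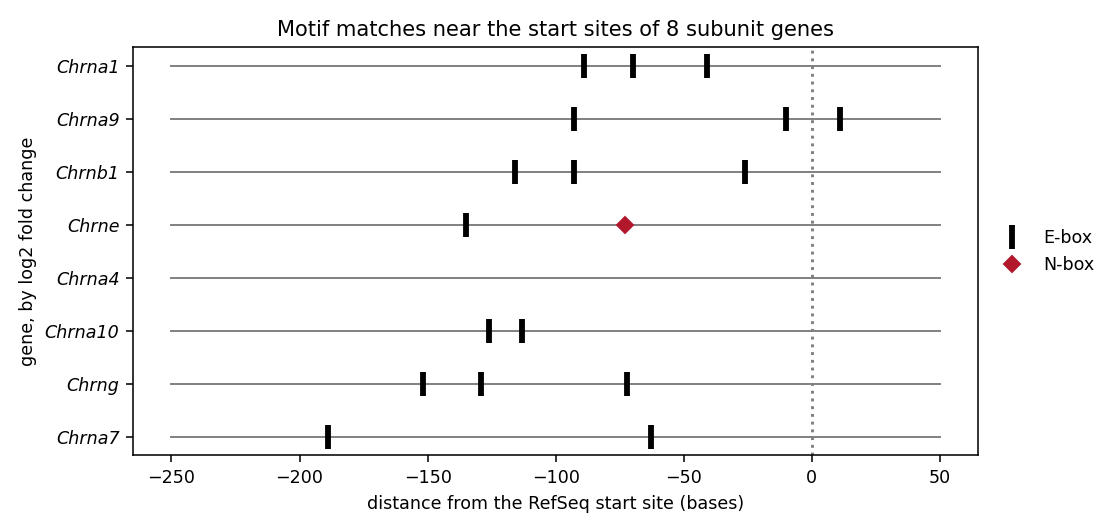
Positions of E-boxes (black bars) and N-boxes (red diamond) around the RefSeq start sites of 8 subunit genes, with distance in bases along the gene's strand. Genes run from the highest to the lowest log2 fold change; Chrna1, Chrna9, Chrnb1 and Chrng each carry 3 E-boxes.

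Chrna1 and Chrna9 rose in knockout muscle. In all, 2 of the 10 genes passed an adjusted p of 0.05 upward and 0 downward, while 0.0406% of all genes passed upward and 0.0541% downward (limma, Benjamini-Hochberg over 22180 genes). All 3 knockout values lay above all 3 control values in 4 of the 10 genes, which were Chrna1, Chrnb1, Chrnd and Chrna9. The same held for 6.74% of all genes. Because of how the genes were chosen, these counts are a description. Whole muscle was measured, and fewer cells of a type and less RNA per cell cannot be told apart in it.

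**Figure D2:**
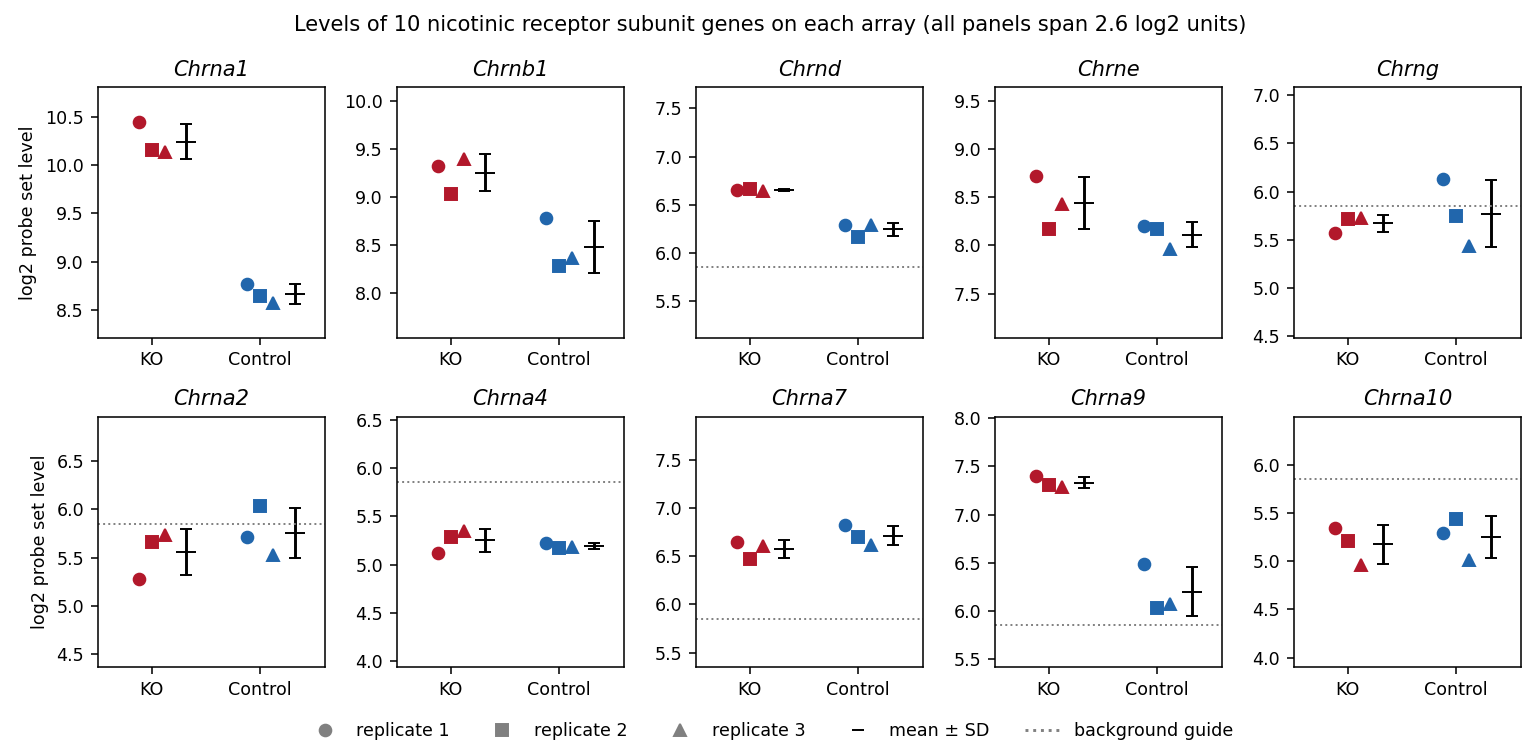
Log2 probe set levels of the 10 subunit genes, with knockout (KO, red) left of control (blue), a marker shape per replicate, and the mean ± SD in black. The dotted line is the background guide of 5.85, and knockout and control values do not overlap for Chrna1, Chrnb1, Chrnd and Chrna9.

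Chrna1, which encodes the acetylcholine-binding subunit of the muscle receptor, had the largest difference. Its log2 levels were 10.45, 10.15 and 10.13 in knockout muscle, against 8.77, 8.65 and 8.57 in control muscle. The groups were far apart, with a gap of 1.36 between the lowest knockout and the highest control value. Chrna1 averaged 10.25 ± 0.18 in knockout and 8.66 ± 0.10 in control muscle (SD, n = 3 each), a 3.00-fold rise (log2 fold change 1.58, 95% confidence interval 1.31 to 1.85, limma adjusted p = 0.00565). It ranked 4 of 22180 by log2 fold change from high to low and 2 by p. Leaving out any 1 array kept the call, with adjusted p between 0.0175 and 0.0421.

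Chrnb1 encodes the beta1 subunit, through which the receptor is held by the scaffold protein rapsyn. Its log2 levels were 9.32, 9.03 and 9.40 in knockout muscle, against 8.78, 8.28 and 8.37 in control muscle. Every knockout array was higher than every control array, but control replicate 1 stood closer to the knockout arrays than the other control arrays did. The means were 9.25 ± 0.19 in knockout and 8.48 ± 0.27 in control muscle (SD, n = 3 each), a 1.71-fold difference that did not reach the threshold (log2 fold change 0.77, interval 0.42 to 1.13, limma adjusted p = 0.196).

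Chrnd encodes the delta subunit, which lines one of the binding sites of the receptor. Knockout arrays gave 6.66, 6.67 and 6.64, and control arrays 6.29, 6.17 and 6.29, on the log2 scale. The spread was small in both groups, with SDs of 0.01 in knockout and 0.07 in control muscle, and the groups did not overlap. The 1.33-fold difference did not reach the threshold (log2 fold change 0.41, interval 0.20 to 0.61, limma adjusted p = 0.233).

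The epsilon subunit of the adult receptor, Chrne, had log2 levels of 8.72, 8.17 and 8.43 in knockout muscle, against 8.20, 8.16 and 7.96 in control muscle. Knockout replicate 2 lay within the control range and the other knockout arrays above it. The log2 fold change of 0.33 had an interval of -0.0057 to 0.67 and did not pass (limma adjusted p = 0.625).

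For the fetal gamma subunit, Chrng, the log2 levels were 5.57, 5.71 and 5.72 in knockout muscle, against 6.13, 5.75 and 5.44 in control muscle. The knockout values fell inside the control range, and the mean of each group lay below 5.85. This level is the 95th percentile of 1394 olfactory and vomeronasal receptor genes and serves only as a guide to background. The log2 fold change of -0.10 did not pass (interval -0.48 to 0.28, limma adjusted p = 0.936). Differences of transcripts near background are compressed on these arrays, and this limits what the Chrng values can show.

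Among the alpha subunits known mainly outside muscle, Chrna9 stood apart from the other 4. Its log2 levels were 7.40, 7.31 and 7.29 in knockout muscle, against 6.49, 6.03 and 6.08 in control muscle. The knockout arrays agreed closely, with an SD of 0.06 beside 0.26 in control muscle, and the groups were separated by 0.80. The means of 7.33 in knockout and 6.20 in control muscle (n = 3 each) gave a 2.20-fold rise (log2 fold change 1.13, interval 0.83 to 1.44, limma adjusted p = 0.0327), which ranked 10 among all genes by log2 fold change. The control mean lay not far above the background guide. The Chrna9 call was lost when any 1 array except control replicate 1 was left out: adjusted p was 0.119, 0.175 and 0.0762 without knockout replicate 1, 2 and 3, and 0.131 and 0.185 without control replicate 2 and 3. Without control replicate 1, the highest of its group, adjusted p was 0.0175. The call was also lost when every probe set was tested (adjusted p = 0.164).

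Chrna10, which pairs with Chrna9 in hair cells, had log2 levels of 5.35, 5.21 and 4.96 in knockout muscle, against 5.30, 5.44 and 5.01 in control muscle. The groups overlapped, both means lay below the background guide, and the log2 fold change was -0.07 (interval -0.40 to 0.26, limma adjusted p = 0.950). Chrna7 gave 6.65, 6.47 and 6.61 in knockout muscle and 6.82, 6.70 and 6.62 in control muscle, with a log2 fold change of -0.13 (interval -0.37 to 0.10, limma adjusted p = 0.816). Its levels were above the guide in both groups, which overlapped.

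The brain subunits Chrna2 and Chrna4 had both group means below the background guide. Chrna2 ranged from 5.28 to 5.74 in knockout muscle and from 5.53 to 6.04 in control muscle, with a log2 fold change of -0.20 (interval -0.58 to 0.18). Chrna4 ranged from 5.12 to 5.35 in knockout muscle and from 5.17 to 5.23 in control muscle, with a log2 fold change of 0.06 (interval -0.17 to 0.28). Neither passed (limma adjusted p = 0.833 and 0.941).

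The remaining 6 subunit genes of the family, Chrna3, Chrna5, Chrna6, Chrnb2, Chrnb3 and Chrnb4, encode neuronal subunits. None was called, and 0 of 6 had a mean above the background guide. Their log2 fold changes lay between -0.25 (Chrnb2) and 0.22 (Chrnb3), with a median of -0.0003, which is also the median over all genes. Chrnb2 was lower in every knockout array, with a mean of 3.67 against 3.92 in control muscle, without passing (limma adjusted p = 0.650). Over the 10 subunits named first the median log2 fold change was 0.19, and over the 5 muscle subunits it was 0.41.

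**Figure D3:**
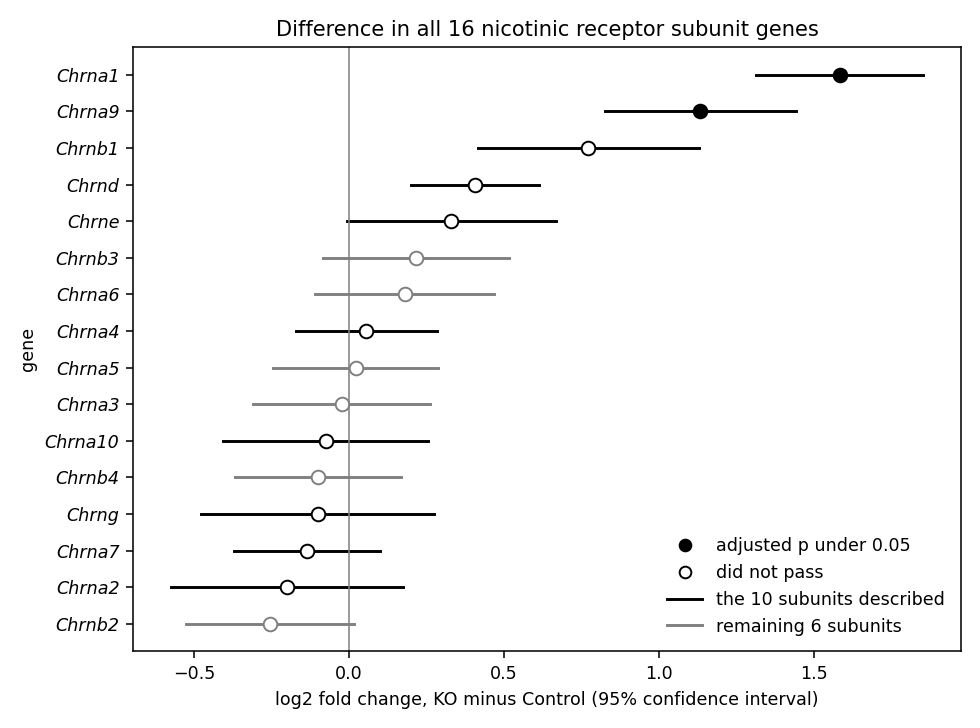
Log2 fold change, knockout minus control, with its 95% confidence interval for all 16 nicotinic subunit genes. Filled circles, Chrna1 (1.58) and Chrna9 (1.13), passed an adjusted p of 0.05; grey marks the 6 subunits outside the 10 described.

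Muscle receptors need their subunits in fixed proportion, so the change of one subunit relative to another was read within each array for 7 pairs. Such a difference needs no common scale between arrays. The Chrna1 minus Chrne difference was 1.73, 1.98 and 1.7 on the log2 scale in knockout arrays, against 0.57, 0.48 and 0.61 in control arrays. All knockout arrays stood above all control arrays, and the difference was larger by 1.25 (SE 0.10) in knockout muscle. Relative to Chrnb1 and Chrnd, Chrna1 was higher by 0.81 (SE 0.17) and 1.18 (SE 0.12), again without overlap. The control mean of Chrnd, 6.25, lay not far above the background guide, and the part of signal compression was not tested. Chrnb1 was higher relative to Chrne by 0.44 (SE 0.17), with groups apart, and relative to Chrnd by 0.37 (SE 0.18), with groups that overlapped.

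The Chrng minus Chrne difference, which contrasts the fetal with the adult subunit, was -3.14, -2.46 and -2.71 in knockout arrays, against -2.07, -2.42 and -2.53 in control arrays. These groups overlapped, and the knockout mean minus the control mean was -0.43 (SE 0.24). Since both group means of Chrng lay below the background guide, this value carries mainly the difference in Chrne. Chrna9 was higher relative to Chrna10 by 1.21 (SE 0.20), without overlap, but Chrna10 was likewise below the guide, so this value largely restates the rise of Chrna9 (1.13). Two-sided exact permutation tests gave p = 0.1 for 5 pairs and 0.2 for the other 2, or 0.14 and 0.2 after Benjamini-Hochberg adjustment over the 7 pairs. The smallest p that 3 against 3 arrays allow is 0.1, so no pair could pass. Several pairs share a gene and are not independent.

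**Figure D4:**
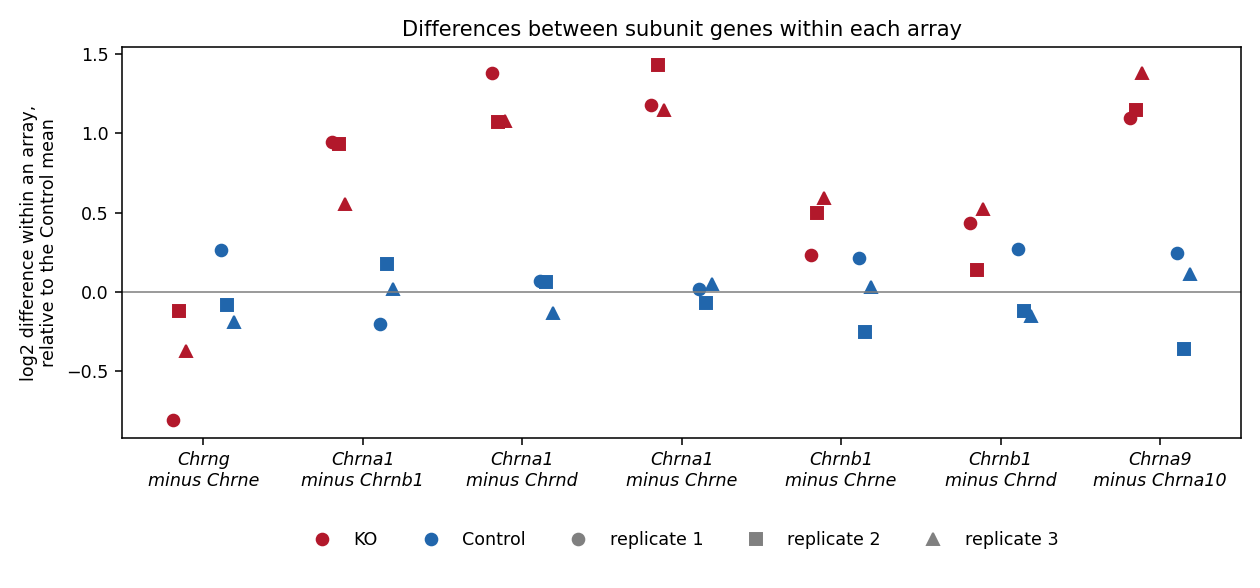
Difference between the log2 levels of 2 subunit genes within each array, drawn relative to its mean over the control arrays, for 7 pairs. Knockout arrays (red) lie above all control arrays (blue) in 5 pairs and overlap them for Chrng minus Chrne and Chrnb1 minus Chrnd.

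Control replicate 1 had the highest control value in 7 of the 10 subunit genes and in 4 of the 5 muscle subunits, while it was highest in 35.5% of all genes. Among knockout arrays, replicate 1 was highest in 5 of the 10, against 38.1% of all genes.

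The likeness of other genes was measured as the root mean square difference between log2 profiles over the 6 arrays, each centred on its own mean. Esr1, the estrogen receptor alpha, was nearest to Chrna1 (0.15), followed by Fam174b (0.22), a membrane protein, and then by Chrna9 itself (0.26). Ttc9 (0.30), Plekho1 (0.32) and Car2 (0.33), a carbonic anhydrase, came next. Fam174b, Ttc9 and Plekho1 did not pass (limma adjusted p = 0.0928, 0.0756 and 0.103). The log2 fold change of Fam174b was 1.58 on the probe set used and 0.77 with the mean over its probe sets. Of the other muscle subunits, Chrnb1 was the gene at rank 20 in nearness to Chrna1, Chrnd at rank 210 and Chrne at rank 380, while Chrng stood at rank 17188. The genes nearest to Chrna9 were Peg3 (0.11), an imprinted zinc finger gene, Ccndbp1 (0.15), Plekho1 (0.18), Klhl40 (0.19), which stabilises thin filament proteins, Chrnb1 (0.21) and Lgmn (0.21), a lysosomal protease. Peg3 and Ccndbp1 did not pass either (limma adjusted p = 0.107 and 0.0661). With 2 groups on 6 arrays, the measure is governed largely by the difference between groups.

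Of 18 genes of receptor clustering and synapse organisation, which gather receptors under the nerve, 0 passed in either direction. The median log2 fold change was 0.01. Of all genes, 0.0406% passed upward and 0.0541% downward, so 0 called says little about this list or the lists that follow. An unadjusted limma p under 0.05 was found for 3 of the 18 and for 1784 of all 22180 genes. Musk, the kinase that starts clustering, came closest, at 8.76, 8.65 and 9.11 in knockout muscle against 8.31, 8.32 and 7.67 in control muscle (log2 fold change 0.75, limma adjusted p = 0.326). Its groups did not overlap. Lrp4, the agrin receptor that activates MuSK, had a log2 fold change of 0.32 (interval -0.0017 to 0.65), agrin itself (Agrn) 0.05, the MuSK adaptor Dok7 -0.11 and rapsyn (Rapsn) -0.13. Utrophin (Utrn), a cytoskeletal protein of the junction, had a log2 fold change of 0.33 and the adaptor Crk -0.32, both with groups that did not overlap. The limma adjusted p of these 6 genes was between 0.456 and 0.951.

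Genes that make, release and degrade acetylcholine were measured in 6 of 7 cases, and 0 were called (median log2 fold change 0.01). Of these 6, 3 had a mean above the background guide, which limits what the list can show. Acetylcholinesterase (Ache), which ends transmission, averaged 7.72 ± 0.30 in knockout and 7.48 ± 0.11 in control muscle (SD, n = 3 each; limma adjusted p = 0.782). Prima1, which anchors the enzyme to membranes, was lower in every knockout array (log2 fold change -0.69, limma adjusted p = 0.452), with a knockout mean below the guide. The choline transporter Slc5a7, a gene of the nerve terminal, had a log2 fold change of 0.14 (0.838), with both means below the guide. Of 19 genes of receptor assembly and accessory proteins, 0 were called, with a median of 0.0050. The chaperone calnexin (Canx) had a log2 fold change of 0.22, Vapa -0.20 and Lynx1, a membrane protein that binds nicotinic receptors, -0.27 (limma adjusted p between 0.643 and 0.786).

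Regulators of the subunit genes comprised 34 genes, of which 0 were called, with a median log2 fold change of -0.02. Myogenin (Myog), which binds E-boxes of the subunit genes after denervation, had log2 levels of 7.18, 7.41 and 7.65 in knockout muscle, against 7.52, 7.17 and 7.03 in control muscle. These overlapped (log2 fold change 0.17, interval -0.19 to 0.54, limma adjusted p = 0.855). Hdac4, which acts upstream of Myog by lowering Dach2, had a log2 fold change of 0.22 (0.744). Dach2, a repressor of Myog, was lower in every knockout array (-0.27, 0.675), with a knockout mean below the background guide. Neuregulin (Nrg1), a nerve and muscle signal, was higher in every knockout array (0.45, 0.362) with both means below the guide, and Runx1, a factor induced by denervation, had a log2 fold change of 0.31 (0.646).

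Of 19 measured other genes of the denervation response, which include Musk, Myog and Runx1 as well, 1 was called higher and 0 lower, and the median log2 fold change was -0.0069. The called gene was Sln, an inhibitor of the calcium pump, with a log2 fold change of 4.36 (limma adjusted p = 0.0304). The call for Sln was lost when any 1 of 4 arrays was left out, with adjusted p of up to 0.119, when every probe set was tested (0.149) and with a robust, intensity-dependent prior (0.0740). Embryonic myosin (Myh3) and the sodium channel subunit Scn3b were lower in every knockout array without passing (log2 fold changes -0.84 and -0.64, limma adjusted p = 0.146 and 0.181). Their knockout means, 5.79 and 5.74, lay below the background guide. Log2 fold changes in the list ran from -1.17 to 4.36. The adhesion protein Ncam1, which spreads along denervated fibres, had a log2 fold change of -0.03 (0.987).

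**Figure D5:**
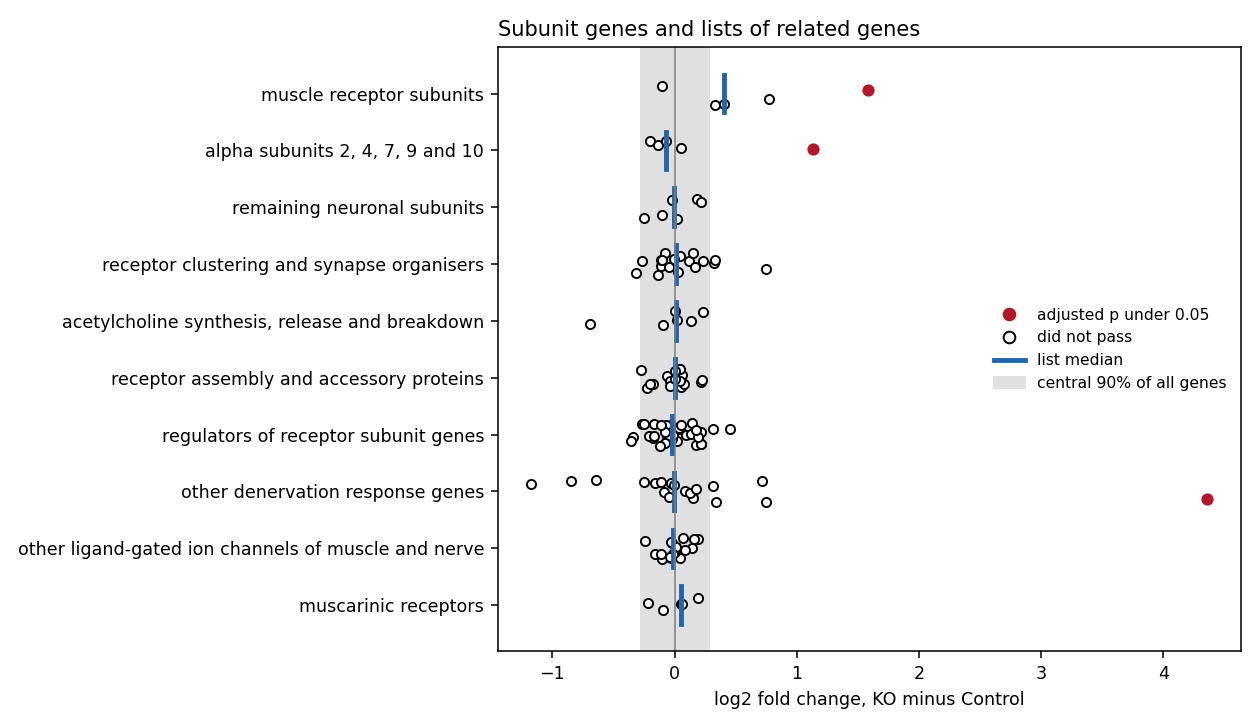
Log2 fold changes, knockout minus control, of the subunit genes and of lists of related genes, 1 point per gene, with list medians as blue bars. The grey band holds the central 90% of all genes (-0.27 to 0.28), and the red points are Chrna1, Chrna9 and Sln.

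The targeted gene, Map3k7, which encodes TAK1, was at 8.22 ± 0.06 in knockout and 8.40 ± 0.07 in control muscle (SD, n = 3 each). Its groups did not overlap, with a mean 12.1% lower (limma adjusted p = 0.686; two-sided exact permutation p = 0.1). The labels do not name the deleted exons, so this probe set does not settle the labels. Muscle fibre markers were high on every array, with mean log2 levels between 13.45 and 13.46 in knockout and between 13.43 and 13.55 in control muscle. Of the 14 markers, 11 were lower in knockout muscle, 4 of them (Acta1, Myh1, Tnnc2 and Ttn) without overlap, and 0 were called. Those 4 had log2 fold changes of -0.05, -0.49, -0.20 and -0.05, in that order. Among all 22180 genes, 11103 were lower in knockout muscle, 1474 of them without overlap. Of 13 Schwann cell and nerve markers, 5 lay above the background guide and 0 were called, and their mean level was 5.63 to 5.70 in knockout and 5.60 to 5.71 in control muscle. Of 10 satellite cell markers, 0 were called and 6 were lower in knockout muscle. Their mean level was 6.81 to 6.88 in knockout and 6.94 to 6.97 in control muscle. Of 11 tendon markers, 0 were called and 10 were lower in knockout muscle, with mean levels of 6.60 to 7.49 in knockout and 7.36 to 7.83 in control muscle. Of 11 fibro-adipogenic markers, 0 were called and 7 were lower in knockout muscle. Their mean level was 8.94 in knockout replicate 3, 9.69 and 9.87 in the other knockout arrays and 9.35 to 9.69 in control muscle. Knockout replicate 3 was also the lowest in tendon markers (6.60). Macrophage, lymphocyte, endothelial and adipocyte markers had 0 called, with median log2 fold changes of 0.01, -0.03, -0.03 and -0.09. The part of these cell types in the subunit results was not tested. Nothing in the labels marks batches, and scan dates were not used here.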

How the data were processed

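RNA of gastrocnemius muscle from 3 knockout and 3 control mice was measured on 1 array each. Per the labels' protocols, RNA was extracted with Trizol and labelled with biotin. The authors deposited log2 probe set summaries for 41345 probe sets. The submitters' processing notes name oligo, limma and RMA, without versions. RMA makes the arrays' distributions alike and compresses differences of dim transcripts. Array medians lay between 5.78 and 5.84. The number of arrays limits the precision. The limma p-values rest on the spread between these mice, which eBayes draws towards the spread of all genes.

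Probe sets with 1 gene symbol (23521) took their names from the platform annotation held by GEO, parts of which may be outdated, and 16010 had none. Of the 22180 genes, 1082 with several probe sets took the one with the highest mean. Knockout was compared with control in limma 3.58.1 (R 4.3.3; lmFit, eBayes, two-sided, adjusted p threshold 0.05), without a filter on dim genes. The test was checked on simulated data. Promoter windows came from RefSeq (GRCm38.p6) and were matched by symbol. No gene set test was run. The genes, lists and tests were chosen with earlier results of these data known. Named were all 16 subunits, Map3k7, up to 4 called or the 3 members with the lowest p of each list of related genes, 10 measured junction and denervation genes fixed by name, and the 5 genes most like Chrna1 and Chrna9. Alternatives were other normalizations, probe set choices, filters, variance priors, array weights, a replicate block and leaving out arrays.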

Additional observations from a re-analysis of the deposited data

How the results depend on the processing

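Chrna1 stayed called under all 14 alternatives run, with log2 fold changes of 1.48 to 1.64, and Chrna9 kept its direction in all. The number of the 10 genes higher in knockout muscle without overlap was 4 on the values as deposited. It was 5 with quantile normalization and with median centring, and 4 to 5 without 1 array. Without 1 array, the log2 fold change of Chrna9 was 1.05 to 1.28, the number of subunits called 1 to 2 and the number of all genes called 2 to 11, against 21 with all arrays. Testing all 41345 probe sets, also those without a gene symbol, called 6 probe sets, with Chrna1 the only subunit (Chrna9 1.13, limma adjusted p = 0.164). The cause of the smaller number was not tested. With genes above the median level only, 53 genes were called, and 36 with a robust, intensity-dependent prior. Signs near zero reversed without 1 array for Chrng (-0.27 to 0.0780), Chrna10 (-0.19 to 0.0336), Chrna3 (-0.0911 to 0.0725), Chrna5 (-0.0624 to 0.11), Chrnb4 (-0.15 to 0.0102), Rapsn (-0.40 to 0.16), Ncam1 (-0.21 to 0.11) and Chrm1 (-0.18 to 0.0468), and for Chrna5 with array weights (-0.000917). With all arrays and genes, the median log2 fold change was -0.0738 for Chrna2, 4, 7, 9 and 10 and -0.0821 for satellite cell markers. It was -0.0254 for muscle fibre markers and -0.0348 for lymphocyte markers, and the other medians are given with their lists. Without 1 array, the median ran from -0.18 to 0.0201 for Chrna2, 4, 7, 9 and 10. It ran from -0.0261 to 0.0878 for the remaining subunits. For denervation genes it ran from -0.0346 to 0.14, and for satellite cell markers from -0.14 to -0.0520. With above-median genes only, which drops dim members, medians were 0.59 for muscle subunits, 0.50 for the other alpha subunits, 0.12 for acetylcholine genes, -0.0479 for assembly genes, 0.0886 for denervation genes, -0.0754 for ion channels and 0.12 for lymphocyte markers. With the mean over probe sets they were -0.0588 for clustering genes, 0.0886 for denervation genes and -0.0433 for muscle fibre markers, and quantile normalization gave -0.000821 for the last; the cause was not tested. Knockout and control mice share replicate numbers, but the labels do not say that these mark pairs, so the numbers were not taken as pairs. Deviations of same-numbered arrays correlated at 0.08, 0.21 and -0.07 across genes, and those of differently numbered arrays between -0.22 and 0.14. These values do not settle whether the mice were paired. With the replicate block 17 genes were called, and adjusted p was 0.0215 for Chrna1 and 0.0496 for Chrna9; the calls of Car2, Klhl40 and Lgmn were lost (0.107, 0.108 and 0.108) and Fam174b was called (0.0285). Car2, Klhl40 and Lgmn also lost their calls without any 1 of the 6 arrays and with every probe set tested (0.198, 0.154 and 0.151), and Esr1 lost its call in 5 of these 6 fits and with every probe set tested (0.130). Alternatives for list medians, Map3k7 and genes other than the 10 were added after seeing the data. Subunits below the background guide are limited by low signal.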

Other observations

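Outside the nicotinic family, other ion channels opened by a transmitter showed no called gene. Of 17 measured GABA, glycine, serotonin and purine receptor channel genes, none passed in either direction. Among all genes 0.0406% passed upward and 0.0541% downward, so 0 called says little about these channels or the muscarinic genes below. The median log2 fold change was -0.0096, with a range of -0.24 to 0.19. Only 6 of the 17 had a mean above the background guide, which limits what the list can show. P2rx4, an ATP-gated channel, was lower in every knockout array, at a mean of 6.81 against 6.97 in control muscle (log2 fold change -0.16, limma adjusted p = 0.747). The glycine receptor subunit Glra2 (-0.24) and the GABA receptor subunit Gabre (0.14) did not pass (0.711 and 0.833). Both group means of Glra2 lay below the guide.

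The 5 muscarinic receptor genes, which respond to acetylcholine through G proteins, had a median log2 fold change of 0.06, with 0 called. Chrm2 had a log2 fold change of -0.22, Chrm4 0.19 and Chrm1 -0.09 (limma adjusted p between 0.767 and 0.925), and 1 of the 5 had a mean above the background guide.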
